A study of Arabidopsis thaliana with 16 samples.

Results

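The genes described here form a group of Arabidopsis thaliana leaf transcripts that were low in untreated leaves of both the atgsnor1-3 and the sid2 mutant. After avrB they were less than 1 log2 unit below the wild type, or above it. A probe set, the unit of the ATH1 array that reports on one transcript or a few close ones, was a member when 3 conditions held. Its mean log2 signal in untreated atgsnor1-3 and in untreated sid2 each lay at least 1.5 below that of untreated Col-0. Untreated Col-0 itself reached a mean signal of at least 50 units. After avrB, each mutant lay less than 1 below Col-0 after avrB, with no upper limit and no rise asked for. The rule was met by 89 of 22746 probe sets. Of these, 40 carried 1 named locus, 2 carried several genes and 47 were unnamed in the annotation used. Because measured values chose the members, the levels of Col-0, atgsnor1-3 and sid2 that entered the rule are described below without a test.

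The arrays measured leaf RNA of plants that were 4 weeks old, in 8 groups of 2 arrays. The groups were Col-0 (the wild type), atgsnor1-1, atgsnor1-3 and sid2, each untreated and 6 h after avrB. All plants were grown on compost at 20 °C and 65% humidity under 18 h of light a day. The labels name no mock treatment, so the untreated leaves were the only control, and the steps of inoculation and the avrB protein cannot be told apart. The labels do not say how avrB was given or whether the 2 arrays of a group came from separate plants, so p-values measure only the spread between these samples. The group after avrB is a single time point.

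As background, GSNOR1 encodes S-nitrosoglutathione reductase, the enzyme that breaks down S-nitrosoglutathione, a store of nitric oxide in the cell. The atgsnor1-3 line is known as a loss-of-function mutant of this gene, and atgsnor1-1 is known as an insertion line with raised reductase activity. The sid2 mutant lacks isochorismate synthase, the main source of pathogen-induced salicylic acid, a hormone that drives many defence genes and also sets their level in unchallenged leaves. AvrB is a Pseudomonas syringae effector that is recognised in Col-0 by the receptor RPM1 through its partner RIN4, which sets off a rapid local defence response. No probe set could be matched to GSNOR1 or to the isochorismate synthase gene, so the genotypes could not be checked at their own transcripts.

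The deposited signals were linear intensities scaled to a common trimmed mean on each array. Within-group correlations of log2 signal ran from 0.884 to 0.934 over all probe sets. For 5 of the 16 arrays the closest array belonged to another group, always one in the same treatment state. The ratio of 3′ to 5′ probe sets, a sign of RNA quality and labelling, ran from 1.16 to 2.01 for GAPDH and from 6.71 to 18.2 for actin. The actin ratio was 8.23 and 10.1 in untreated Col-0, 16.6 and 13.4 in atgsnor1-1, 8.33 and 6.96 in atgsnor1-3, and 9.46 and 14.2 in sid2. After avrB it was 15.3 and 18.0 in Col-0, 13.2 and 18.2 in atgsnor1-1, 6.71 and 9.26 in atgsnor1-3, and 13.0 and 14.0 in sid2. It was thus lower in atgsnor1-3 than in most other arrays and higher in Col-0 after avrB than before, and its part in the differences below was not tested. A probe set entered the tests when its mean over all arrays was above the dimmest 40%, at 20.2 units, which left 13648 probe sets. All 89 members passed this filter.

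In untreated leaves, the member levels fell into an order of Col-0, atgsnor1-1, sid2 and atgsnor1-3. Relative to the untreated Col-0 mean of each member, the median member stood at -0.03 and 0.03 on the log2 scale on the Col-0 arrays and at -0.61 and -0.42 on the atgsnor1-1 arrays. It stood at -2.05 and -1.97 on the sid2 arrays and at -2.92 and -2.56 on the atgsnor1-3 arrays. After avrB, all 8 arrays had member medians between 1.18 and 1.46 above untreated Col-0. The arrays that were far apart at rest lay within a narrow band after avrB. For atgsnor1-3 and sid2 against Col-0, the rule itself set the distance at rest and limited how far below they could lie after avrB. The members made up 2.14% to 2.82% of all signal on the avrB arrays. At rest that share was 0.926% to 0.981% in Col-0, 0.127% to 0.150% in atgsnor1-3 and 0.201% to 0.239% in sid2. In bulk leaf RNA, fewer cells of a type and less RNA per cell cannot be told apart.

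**Figure D1:**
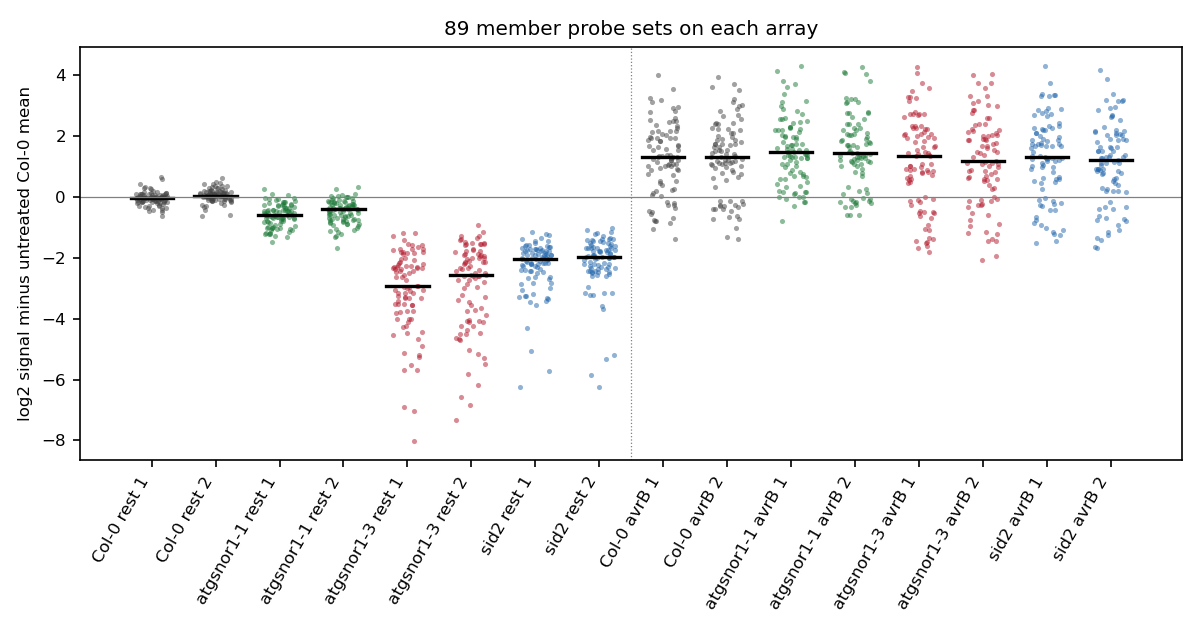
Log2 signal of the 89 members on each of the 16 arrays, minus the mean untreated Col-0 value of the same member. Points are members, black bars are medians per array, "rest" means untreated and the dotted line divides untreated from avrB arrays. The 4 untreated arrays of atgsnor1-3 and sid2 have medians from -2.92 to -1.97, and the 8 avrB arrays have medians from 1.18 to 1.46.

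The depth of the resting difference varied among members. The difference between untreated atgsnor1-3 and Col-0 had a median of -2.76 and ran from -6.60 to -1.54, and 38 members lay at or below -3. For sid2 the median was -1.99, the range was -6.04 to -1.5012, and 9 members lay at or below -3. Among all tested probe sets, 4.62% lay at or below -1.5 in atgsnor1-3 and 2.69% did in sid2. Signals near the floor of the array limit how large a fold can be read. The mean at rest was under 20.2 units for 35 members in atgsnor1-3 and 18 in sid2, and for 0 in atgsnor1-1, so the size of those log2 differences rests on dim values.

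Members near the limits of the rule show how sharp they are. Just inside the resting limit were AT1G58420, at -1.5012 in sid2, SUFE2 (AT1G67810), at -1.51, and AT3G16990, at -1.54. Just outside were AT1G69730, at -1.48 in sid2, AT4G26060, at -1.44 in sid2, and AT2G30140, at -1.4988 in atgsnor1-3. After avrB, AT1G66880 at -0.99 and MSRB9 (AT4G21850) at -0.97 in atgsnor1-3 were the last ones kept. AT3G60420 at -1.00092 in atgsnor1-3 and AT3G18250 at -1.01 in sid2 were the first left out. When the rule was applied to the arrays numbered 1 alone it chose 110 probe sets, of which 102 were below Col-0 in both mutants on the arrays numbered 2, 62 were low in both by the full 1.5, and 49 met every condition again. Chosen on the arrays numbered 2 alone, 87 probe sets gave 81, 58 and 49 on the arrays numbered 1. Among all tested probe sets, 35.0% and 35.9% were below Col-0 in both mutants on the arrays numbered 2 and 1, and 2.19% and 2.23% were low in both by 1.5. The membership of single genes moved with the array. Since the 2 arrays of a group may share plants, these counts describe how arrays repeat and are not a replication of the group.

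The rule did not use the atgsnor1-1 arrays, so the values of this genotype did not choose the members. The rule did favour probe sets that rise after avrB in the other mutants, so all tested probe sets are not a matched background. The standard errors also draw on arrays that the rule used. A call by limma needed both a Benjamini-Hochberg adjusted p under 0.05 and a change of 1 or more in log2. In the avrB response of atgsnor1-1, 70 of 89 members rose and 0 fell. Over all 13648 tested probe sets, 8.58% were called higher and 10.5% lower. At an unadjusted p under 0.05, 79 members were higher and 0 lower, with no share of all tested probe sets taken to set beside them. The median difference over the members was 1.96 on the log2 scale, against a median of -0.08 over all tested probe sets. The range was -0.43 to 5.06, with 43 members at or above 2 and 19 at or above 3. In 84 members both avrB arrays of atgsnor1-1 lay above both of its untreated arrays, which was so for 29.8% of all tested probe sets. Of the 40 named members, 33 were called higher. Without any 1 of the 4 atgsnor1-1 arrays, the count called higher was 62 or 63. The actin 3′ to 5′ ratios of the untreated and avrB atgsnor1-1 arrays overlapped.

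**Figure D2:**
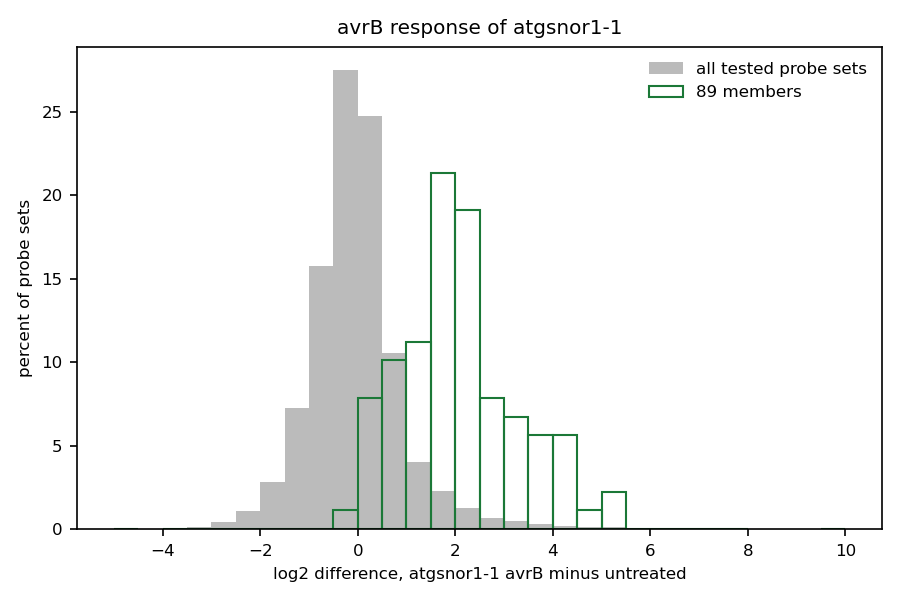
Distribution of the log2 difference between avrB and untreated atgsnor1-1, as a percent of probe sets per bin. Grey bars are the 13648 tested probe sets and green outlines are the 89 members. The members centre near 1.96 and the tested probe sets near -0.08.

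The largest rises in atgsnor1-1 among the members without a gene name were 5.06 ± 0.40 (SE, adjusted p = 2.12e-07) and 5.04 ± 0.48 (SE, adjusted p = 1.09e-06), above that of any named member. A single member, also unnamed, had a lower mean after avrB in atgsnor1-1, at -0.43 ± 0.39 (SE, adjusted p = 0.448), which did not pass the test.

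The named members are described by what their products are known or predicted to do. These role groups were made after the values had been seen, and their counts are a description. Each ± value below is the standard error of the limma fit over 16 arrays, with 2 arrays a group, unless another fit is named. Some log2 differences are given without a standard error.

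**Figure D3:**
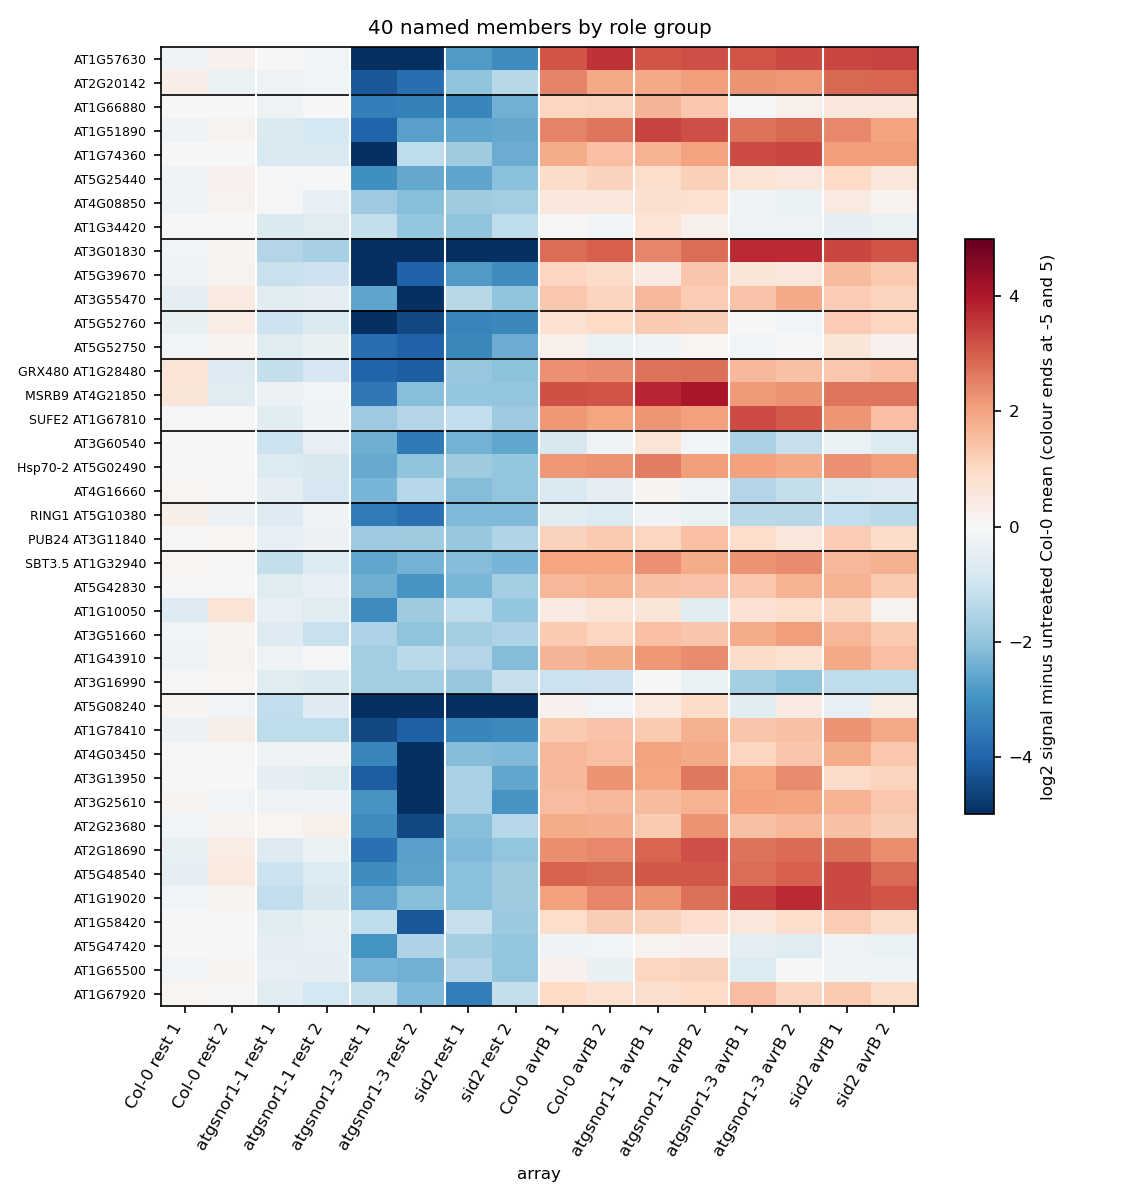
Log2 signal of the 40 named members on each of the 16 arrays, minus the untreated Col-0 mean of the same member. Rows are grouped by role (from the top: TIR-domain proteins, kinases, calcium-binding proteins, heavy-metal-associated domain proteins, redox and iron-sulfur enzymes, chaperones and translocation, ubiquitin ligases, other enzymes, others), blue is lower and red is higher, and the colour ends at -5 and 5. The untreated atgsnor1-3 and sid2 columns are blue throughout, and most avrB columns are red.

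Both TIR-domain proteins in the group, AT1G57630 and AT2G20142, rose in atgsnor1-1 after avrB. TIR domains are the signalling part of one class of plant immune receptor and have NAD-cleaving activity. AT1G57630 gave signals of 120.3 and 164 units in untreated Col-0, 138 and 128 in atgsnor1-1, 3.09 and 0.872 in atgsnor1-3 and 19.9 and 15.7 in sid2. After avrB its signals were 1229.6 and 1713, 1252 and 1308, 1248 and 1381 and 1441 and 1445 in the same order. The untreated atgsnor1-1 arrays lay within the range of untreated Col-0, the other mutants lay far below, and after avrB all 8 arrays lay within 1229.6 to 1713 units. The rise in atgsnor1-1 was 3.27 ± 0.38 (SE, adjusted p = 6.58e-06). AT2G20142 rose by 2.18 ± 0.27 (SE, adjusted p = 1.12e-05), from 68.2 and 74.0 to 299 and 348 units.

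All 6 kinases in the group rose in atgsnor1-1. AT1G51890, AT1G34420, AT1G74360 and AT4G08850 are leucine-rich repeat receptor-like kinases, a class of cell surface receptors, AT5G25440 is a receptor-like cytoplasmic kinase and AT1G66880 is another protein kinase. AT1G51890 had 65.5 and 81.7 units in untreated Col-0, 44.1 and 39.6 in atgsnor1-1, 4.58 and 11.1 in atgsnor1-3 and 11.6 and 12.3 in sid2. After avrB it had 413 and 464 in Col-0, 767 and 686 in atgsnor1-1, 476 and 531 in atgsnor1-3 and 391 and 298 in sid2. The atgsnor1-1 arrays were the highest of the avrB arrays, and every avrB array lay above every untreated one. Its rise in atgsnor1-1, 4.12 ± 0.30 (SE, adjusted p = 7.99e-08), was the largest among the kinases. AT1G66880, at 345 and 353 units in untreated Col-0 and 32.8 and 33.3 in untreated atgsnor1-3, rose by 1.66 ± 0.22 in atgsnor1-1 (SE, adjusted p = 3.05e-05). The smallest rises were in AT4G08850, at 1.01 ± 0.17 (SE, adjusted p = 2.59e-04), and AT5G25440, at 1.10 ± 0.23 (SE, adjusted p = 0.00164). AT4G08850 fell short of the log2 limit without untreated atgsnor1-1 array 2, at 0.85, and AT5G25440 did so without avrB array 2, at 0.94. AT1G34420 gave 0.92 with an adjusted p of 0.0623 without avrB array 1. AT1G74360 rose by 2.66 ± 0.73 (SE, adjusted p = 0.00986), from 37.3 and 37.5 to 215 and 261 units. It lost its call without untreated array 1, at 2.66, and without avrB array 2, at 2.52. Its pooled SE took in untreated atgsnor1-3 at 1.74 and 26.2 units. In a limma fit of the 2 compared groups alone the rise was 2.66 ± 0.21 (SE, adjusted p = 1.61e-07).

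The 3 calcium-binding members all rose in atgsnor1-1. AT3G01830 and AT5G39670 are calmodulin-like EF-hand proteins, a family of calcium sensors, and AT3G55470 carries a C2 domain, a module that binds membranes in a calcium-dependent way. AT3G01830 was the named member with the lowest resting level relative to Col-0, averaged over both mutants. It gave 93.8 and 115 units in untreated Col-0, 37.6 and 32.7 in atgsnor1-1, 0.796 and 1.44 in atgsnor1-3 and 1.38 and 1.82 in sid2. After avrB it gave 728 and 824 in Col-0, 565 and 723 in atgsnor1-1, 1382 and 1378 in atgsnor1-3 and 1054 and 924 in sid2. The untreated signals of atgsnor1-3 and sid2 were all under 2 units, and after avrB the arrays of both lay above those of Col-0. In atgsnor1-1 it rose by 4.19 ± 0.26 (SE, adjusted p = 2.12e-08), the largest rise among the named members. AT5G39670 went from 133 and 138 to 378 and 740.1 units in atgsnor1-1, 1.96 ± 0.56 (SE, adjusted p = 0.0129), with an adjusted p of 0.0654 and 0.0574 without untreated arrays 1 and 2 and 0.134 without avrB array 2. AT3G55470 rose by 1.94 ± 0.65 (SE, adjusted p = 0.0297), from 39.1 and 42.1 to 175 and 138 units. Its pooled SE took in untreated atgsnor1-3 at 9.32 and 1.02 units. Without any 1 of the 4 atgsnor1-1 arrays the rise was 1.77 to 2.11 and the call was lost.

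AT5G52750 and AT5G52760 encode proteins with a heavy-metal-associated domain and lie next to each other on chromosome 5, with 0 protein-coding genes between them. AT5G52760 gave 380.5 and 632 units in untreated Col-0, 239 and 298 in atgsnor1-1, 1.90 and 21.6 in atgsnor1-3 and 49.8 and 52.7 in sid2. After avrB it gave 828 and 988 in Col-0, 1219 and 1145 in atgsnor1-1, 491 and 441 in atgsnor1-3 and 1183 and 1023 in sid2. The untreated groups did not overlap, and atgsnor1-3 stayed the lowest after avrB. Its rise in atgsnor1-1 was 2.15 ± 0.66 (SE, adjusted p = 0.0185). That pooled SE took in the untreated atgsnor1-3 arrays at 1.90 and 21.6 units. Without any 1 of the 4 atgsnor1-1 arrays the rise was 1.99 to 2.31 and the call was lost. AT5G52750 had 336 and 399.7 units in untreated Col-0 and 442 and 288 after avrB, which overlap. It did not pass the test in atgsnor1-1, at 0.43 ± 0.25 (SE, adjusted p = 0.209), while untreated atgsnor1-3 and sid2 held 26.0 and 21.9 and 39.8 and 66.0 units.

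All 3 redox and iron-sulfur members rose in atgsnor1-1. GRX480 (AT1G28480) is a glutaredoxin of the CC type that binds TGA transcription factors and is induced by salicylic acid. It gave 163 and 66.8 units in untreated Col-0, 45.2 and 59.0 in atgsnor1-1, 6.50 and 5.99 in atgsnor1-3 and 27.8 and 25.3 in sid2. After avrB it gave 504 and 542 in Col-0, 688 and 702 in atgsnor1-1, 322 and 291 in atgsnor1-3 and 267 and 294 in sid2. The untreated Col-0 arrays differed from each other by more than the untreated atgsnor1-1 arrays did, and after avrB the atgsnor1-3 and sid2 arrays lay below those of Col-0 and atgsnor1-1. GRX480 rose by 3.75 ± 0.29 in atgsnor1-1 (SE, adjusted p = 1.58e-07). MSRB9 (AT4G21850), a methionine sulfoxide reductase that repairs oxidised methionine, went from 84.3 and 92.4 to 1435 and 1737 units there, 4.16 ± 0.37 (SE, adjusted p = 5.74e-07). SUFE2 (AT1G67810), an activator of cysteine desulfurase in iron-sulfur cluster assembly, went from 45.6 and 59.4 to 308 and 275 units, 2.48 ± 0.25 (SE, adjusted p = 1.69e-06).

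Of the 3 members that fold or move proteins, 2 rose in atgsnor1-1. Hsp70-2 (AT5G02490), a cytosolic heat shock protein chaperone, had 524 and 525 units in untreated Col-0, 325 and 299 in atgsnor1-1, 91.9 and 130.2 in atgsnor1-3 and 152 and 137 in sid2. After avrB it had 2329 and 2463 in Col-0, 3065 and 2206 in atgsnor1-1, 2189.9 and 1968 in atgsnor1-3 and 2523 and 2231 in sid2. Its levels in the 4 genotypes separated at rest and came close together after avrB, and it rose by 3.06 ± 0.18 in atgsnor1-1 (SE, adjusted p = 1.34e-08). AT3G60540, a Sec61 beta subunit of the channel that carries proteins into the endoplasmic reticulum, rose by 1.00 ± 0.34 (SE, adjusted p = 0.032), at the edge of the limit. It gave 0.68 (adjusted p = 0.263) without untreated array 1, 0.61 (adjusted p = 0.316) without avrB array 1 and, with quantile normalization, 0.99 (adjusted p = 0.0524). AT4G16660, an Hsp70 family protein, had 0.60 ± 0.25 (SE, adjusted p = 0.0764) and did not pass.

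Of the 2 ubiquitin ligases, 1 rose in atgsnor1-1. PUB24 (AT3G11840), a U-box ligase that with PUB22 and PUB23 dampens immune signalling, rose by 1.64 ± 0.20 (SE, adjusted p = 9.83e-06), from 115 and 127 to 326 and 435 units. RING1 (AT5G10380), a RING-type ligase tied to programmed cell death, did not pass the test, at 0.16 ± 0.19 (SE, adjusted p = 0.56); the difference between these responses was not tested. RING1 gave 2021 and 1380.1 units in untreated Col-0, 1063 and 1484 in atgsnor1-1, 147 and 126 in atgsnor1-3 and 358 and 358 in sid2. After avrB it gave 1125 and 1048 in Col-0, 1483 and 1329 in atgsnor1-1, 644 and 641 in atgsnor1-3 and 718 and 658 in sid2. Both Col-0 arrays were lower after avrB than untreated, while in atgsnor1-3 and sid2 every avrB array lay above every untreated one.

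**Figure D4:**
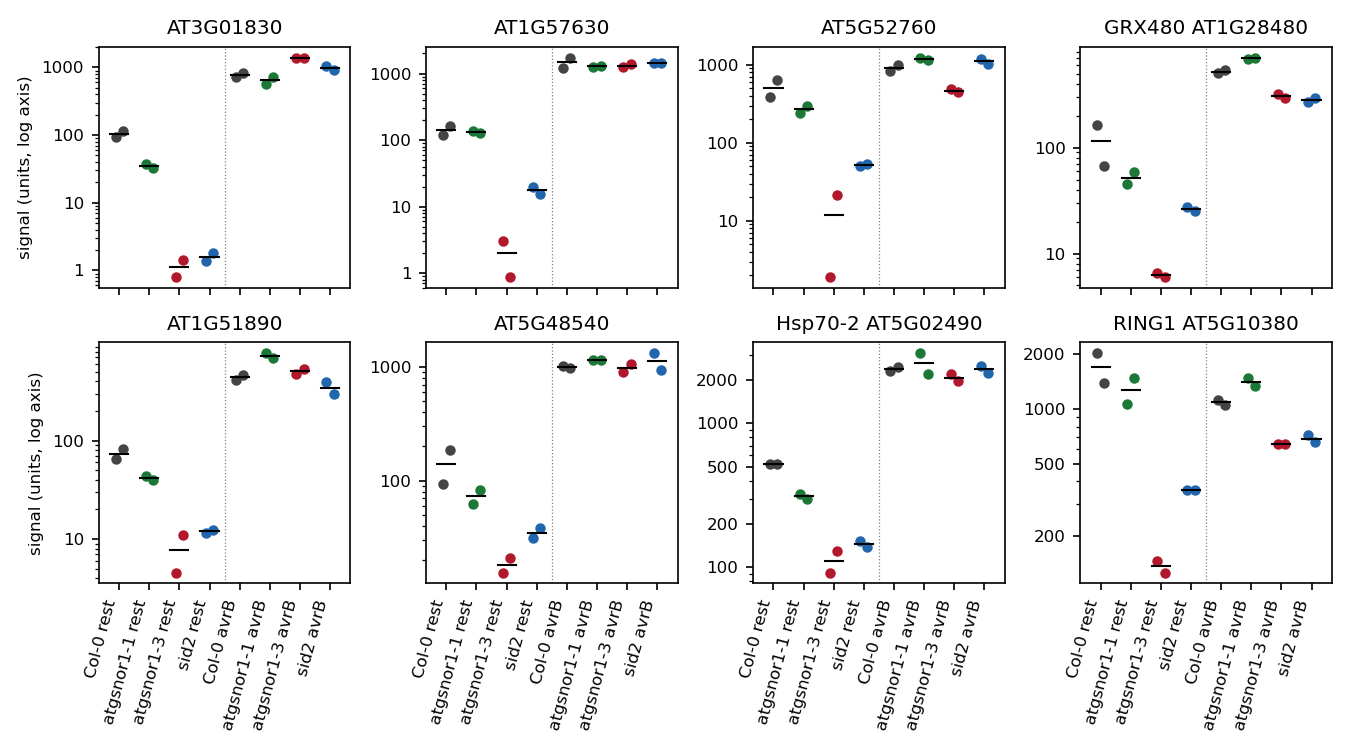
Signal in array units on a log axis for 8 members in the 8 groups. Points are single arrays (grey Col-0, green atgsnor1-1, red atgsnor1-3, blue sid2), bars are means of 2 arrays, "rest" means untreated and the dotted line divides untreated from avrB groups. AT3G01830 is under 2 units on the 4 untreated arrays of atgsnor1-3 and sid2, and RING1 is lower after avrB than untreated in Col-0 alone, on its 2 arrays each.

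Among the other enzymes, 4 of 6 rose in atgsnor1-1. The subtilisin-like protease SBT3.5 (AT1G32940) rose by 3.02 ± 0.20 (SE, adjusted p = 3.98e-08), and the AAA-type ATPase AT1G43910 rose by 2.44 ± 0.24 (SE, adjusted p = 1.46e-06). AT3G51660, a relative of the macrophage migration inhibitory factor of animals, rose by 2.34 ± 0.20 (SE, adjusted p = 4.60e-07), and the HXXXD-type acyltransferase AT5G42830 by 1.95 ± 0.25 (SE, adjusted p = 1.56e-05). The xylanase family protein AT1G10050 had 0.52 ± 0.50 (SE, adjusted p = 0.48) and AT3G16990, a protein of the TENA type that serves thiamin salvage, had 0.50 ± 0.24 (SE, adjusted p = 0.131). Neither passed the test.

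The other 13 named members, of varied or unassigned function, held 11 that rose in atgsnor1-1. AT5G48540, a secreted protein related to cysteine-rich receptor-like kinases, gave 94.1 and 185 units in untreated Col-0, 62.7 and 82.2 in atgsnor1-1, 15.5 and 20.6 in atgsnor1-3 and 31.3 and 38.2 in sid2. After avrB it gave 1029 and 969 in Col-0, 1147 and 1141 in atgsnor1-1, 907 and 1057 in atgsnor1-3 and 1318 and 942 in sid2. Every avrB array stood above every untreated one, and after avrB the 8 arrays lay between 906.9 and 1318 units. Its rise in atgsnor1-1 was 3.99 ± 0.26 (SE, adjusted p = 3.69e-08). AT1G19020 rose by 3.51 ± 0.22 (SE, adjusted p = 2.73e-08) and, at 1882 and 2284 units in atgsnor1-3 and 1683 and 1499.5 in sid2 against 707 and 919.5 in Col-0, was higher in both mutants than in the wild type after avrB. AT2G18690 rose by 3.53 ± 0.28 (SE, adjusted p = 2.12e-07), and the VQ-motif protein AT1G78410, of a family that partners WRKY transcription factors, by 2.82 ± 0.25 (SE, adjusted p = 6.28e-07). AT3G13950 rose by 2.83 ± 0.37 (SE, adjusted p = 2.05e-05) and AT1G65500 by 1.56 ± 0.23 (SE, adjusted p = 7.70e-05). AT5G08240 had 122 and 99.4 units in untreated Col-0 but 2.86 and 3.40 in atgsnor1-3 and 2.11 and 2.76 in sid2, and rose by 1.63 ± 0.37 in atgsnor1-1 (SE, adjusted p = 0.0027). The ankyrin repeat protein AT4G03450 rose by 2.16 ± 0.66 (SE, adjusted p = 0.0186), from 132 and 129 to 610 and 557 units. Its pooled SE took in untreated atgsnor1-3 at 15.4 and 1.31 units. Without any 1 of the 4 atgsnor1-1 arrays the rise was 2.09 to 2.22 and the call was lost. The calls of AT1G67920 (without any 1 of the 4 arrays, adjusted p 0.0554 to 0.122), of AT3G25610, a phospholipid flippase (without untreated or avrB array 2, 0.0523 and 0.0583), and of AT2G23680, a cold-acclimation family protein (without avrB array 2, 0.0567), were lost in the same way. AT1G58420 and AT5G47420 did not pass, at 1.44 ± 0.60 (SE, adjusted p = 0.0752) and 0.62 ± 0.31 (SE, adjusted p = 0.141).

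The avrB responses of Col-0, atgsnor1-3 and sid2 entered the rule in part and are given as values. In Col-0 the median member stood 1.23 above its untreated level on the log2 scale, 59 members were at or above 1, against 8.59% of tested probe sets, and 3 were at or below -1, against 6.68%. The medians were 3.85 in atgsnor1-3, with 87 members at or above 1, against 15.8%, and 3.39 in sid2, with 84, against 11.6%. At or below -1 were 0 members in either mutant, against 21.0% of tested probe sets in atgsnor1-3 and 13.0% in sid2. These responses share their untreated or avrB arrays with the differences that chose the members. The condition after avrB was met in different forms. In 65 members both mutants ended above untreated Col-0. In 19 they both ended below it. Col-0 itself was lower after avrB than untreated in 19 members, against 58.1% of all tested probe sets. In 16 of those 19 members both mutants stayed below untreated Col-0. For the counts of both mutants against untreated Col-0, no share of all tested probe sets was taken.

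The 8 named members that were lower in Col-0 after avrB were AT1G34420, AT1G65500, AT3G16990, AT3G60540, AT4G16660, RING1, AT5G47420 and AT5G52750. For AT3G16990 the Col-0 arrays went from 129 and 145 to 65.8 and 66.8 units, while untreated atgsnor1-3 and sid2 had 41.3 and 41.9 and 36.4 and 60.8 and after avrB had 42.2 and 35.2 and 57.1 and 56.8. Its condition after avrB was thus met with the wild type lower, while the mutant arrays before and after avrB overlapped. For AT4G16660 Col-0 went from 372 and 328 to 205 and 254 units, and atgsnor1-3 from 70.0 and 130.3 to 127 and 152, so the groups drew together from both sides.

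Untreated atgsnor1-1 lay between Col-0 and the other mutants. Because the rule asked for a high untreated Col-0, the difference from Col-0 is described without a test. Its median over the members was -0.50, against -0.01 over all tested probe sets. It was below 0 for 86 of 89 members, where 51.0% of tested probe sets were below 0. At or above 1 were 0 members, against 1.32% of tested probe sets, and at or below -1 were 11, against 1.52%, and 17 without untreated atgsnor1-1 array 2. In 64 members both untreated atgsnor1-1 arrays lay below both untreated Col-0 arrays, against 19.4%. In 88 members they lay above all 4 untreated arrays of atgsnor1-3 and sid2, against 14.1%, but the rule had chosen those arrays for low values. AT3G01830 had the lowest value of the named members against Col-0, -1.57 ± 0.26 (SE), followed by AT1G78410, at -1.29 ± 0.25, and AT5G39670, at -1.07 ± 0.56. AT1G57630 at -0.08 ± 0.38, AT5G25440 at -0.06 ± 0.23 and AT1G66880 at -0.13 ± 0.22 lay near the Col-0 level. After avrB the median difference from Col-0 was 0.21, against -0.01 over all tested probe sets. At or above 1 were 4 members, against 0.784%, and at or below -1 were 0, against 1.73%. The rule used the Col-0 avrB arrays too, so this difference is likewise described without a test.

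The rule held both mutants to the same limits, so their arrays chose the members and the difference between them is described without a test. In untreated leaves its median, atgsnor1-3 minus sid2, was -0.59, against 0.03 over all tested probe sets. At or below -1 were 31 members, against 4.40% of tested probe sets. The count was 17 with a pseudocount at the 25th percentile and 39 with quantile normalization. At or above 1 were 0 members, against 1.92%, and 1 without untreated atgsnor1-3 array 2 or 2 without untreated sid2 array 2. In 47 members both untreated atgsnor1-3 arrays lay below both of sid2, against 21.2%. Among the named members, AT1G57630 stood at -3.43 ± 0.38 (SE) and AT3G13950, with 3.55 and 1.71 units in atgsnor1-3 and 19.8 and 10.3 in sid2, at -2.53 ± 0.37. All 4 of these arrays were dim for both genes, so the sizes carry no rank. AT5G52760 stood at -2.997 ± 0.658, AT4G03450 at -2.87 ± 0.66 and AT3G55470 at -2.53 ± 0.65. In that order their untreated atgsnor1-3 arrays gave 1.90 and 21.6, 15.4 and 1.31, and 9.32 and 1.02 units. GRX480 stood at -2.09 ± 0.29 and AT2G20142 at -2.31 ± 0.27, with 6.50 and 5.99 and 4.32 and 5.97 units in atgsnor1-3. These sizes rest on dim signals too and carry no rank. RING1, with signals over 100 units on each of these arrays, stood at -1.40 ± 0.19.

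After avrB the rule itself bounded both mutants from below against Col-0. The median difference between them was -0.10, which turned to 0.04 without avrB sid2 array 1. Within 0.5 of 0 were 61 of 89 members, against 62.9% of tested probe sets. At or above 1 were 6 members, against 3.77%, and at or below -1 were 4, against 7.92%, a count that was 2 without avrB atgsnor1-3 array 2 and 7 without avrB sid2 array 2. SUFE2 had 641 and 559 units in atgsnor1-3 and 306 and 189.7 in sid2, 1.31 ± 0.25 (SE). AT3G13950 had 239 and 320.3 and 121 and 134 units, 1.12 ± 0.37 (SE). In both genes the atgsnor1-3 arrays lay above those of sid2. AT1G74360 stood at 1.21 ± 0.73 (SE), and AT5G52760, the lowest of the members, at -1.24 ± 0.66 (SE). The actin 3′ to 5′ ratio was lower on both atgsnor1-3 arrays than on both sid2 arrays in each state, and its part in these differences was not tested.

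**Figure D5:**
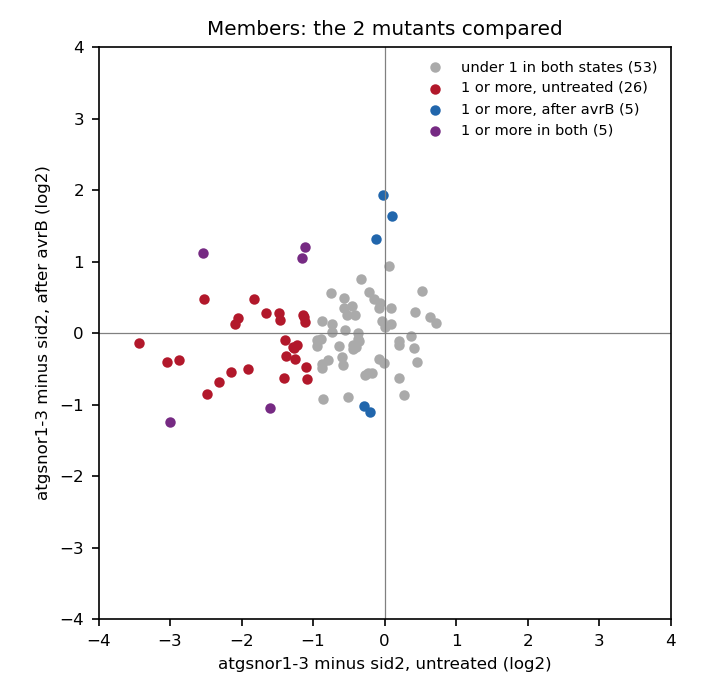
Log2 difference between atgsnor1-3 and sid2 for the 89 members, untreated on the horizontal axis and after avrB on the vertical axis. Red points differ by 1 or more in untreated leaves alone (26), blue after avrB alone (5), purple in both (5) and grey in neither (53). The points spread to -3.43 on the horizontal axis and stay between -1.24 and 1.93 on the vertical one.

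Of the 235 probe sets that were low at rest in both mutants with the same Col-0 level, the members made up 37.9%, and 146 did not return to within the limit after avrB. Of the 141 of these that were tested, 69 rose in atgsnor1-1 and 0 fell, against 70 of 89 members. The difference between the 2 sets was not tested.

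Lists of defence genes and of other pathways give the setting of the members, though only genes with a matched probe set could be read. Their counts stand beside the 8.58% of all tested probe sets that were called higher in atgsnor1-1 after avrB. Of 29 listed salicylic acid signalling genes 5 were tested and all 5 rose in atgsnor1-1 after avrB, including the member GRX480 and, at 2.70, the transcription factor WRKY53. All 6 tested calcium sensors of 12 listed rose, 2 of them members. The 3 tested genes of 35 listed as immune receptors and their partners rose as well. They were the member AT1G57630, SGT1A at 1.69, a co-chaperone of immune receptors, and BIK1 at 1.34, a cytoplasmic kinase downstream of surface receptors. Of 9 tested genes listed for protein folding in the endoplasmic reticulum, 3 rose and none was a member. These were BZIP60 at 1.29, which encodes a regulator of the response to unfolded proteins, FES1A at 2.43, a cofactor of cytosolic Hsp70, and ROF2 at 1.42, an immunophilin, so those last 2 act outside that compartment. In the same list, CRT1B, at -1.69 in untreated atgsnor1-3 and -1.71 in sid2, and ERDJ3B, at -2.07 and -1.96, met the resting condition. Only the condition after avrB kept them out. The member AT3G60540, a Sec61 beta subunit, was not on the list. The 2 tested genes of the list of chitinases and glutathione transferases, both chitinases, all 3 tested genes for phenylpropanoid and coumarin synthesis and the 1 for tryptophan and camalexin synthesis rose, and none of the 2 for jasmonate did. The lists were small and chosen with earlier results known.

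Other markers also moved with treatment. The summed signal of 5 of 6 leaf mesophyll markers was 24681 to 39337 units on untreated arrays and 13787 to 17597 after avrB, and 2 of the 5, LHCB4.2 at -1.45 and PRK at -1.72, fell in atgsnor1-1. In untreated leaves the sum was 25033 to 31225 in Col-0, 24681 to 32783 in atgsnor1-1, 32816 to 39337 in atgsnor1-3 and 28913 to 30942 in sid2. The only guard cell marker read, FAMA, gave 29.2 to 71.9 units over all arrays. The root hair marker EXPA7 gave 3.00 to 44.2 units and was too dim to be tested, and no vascular or epidermis marker had a matched probe set. The circadian gene GI was at -0.81 in atgsnor1-1 after avrB, and in untreated leaves it differed from Col-0 by 0.05 in atgsnor1-3, -0.06 in sid2 and 0.00 in atgsnor1-1. After avrB GI gave 197 and 176.5 units in Col-0 and 164 and 164 in atgsnor1-1. It gave 261 and 281 in atgsnor1-3 and 131 and 142 in sid2, so the genotypes differed in that state. The part of these differences in the member levels was not tested.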

How the data were processed

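The deposited values were linear intensity signals of 1-colour Affymetrix ATH1 arrays, 1 per probe set and array, made with the programs MAS5 and GCOS, according to the submitters' processing notes, with versions not stated in those notes. All arrays share the same mean once 2% of signals at either end are trimmed. Signals ran from 0.0236 to 18430 units. Per the labels' protocols, a Qiagen kit was used for RNA and biotin for labelling.

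Labels put the 16 arrays in 8 groups of 2. One array of sid2 after avrB has a title with both replicate numbers and is called array 2 here, since the other is numbered 1. Signals were taken to log2 with no pseudocount, and the 64 control probe sets were left out. Probe sets in the dimmest 40% by mean log2 signal (under 20.2 units) were not tested, which left 13648. With limma 3.58.1 (R 4.3.3), lmFit and eBayes with a trend estimated the 8 group means from all 16 arrays, leaving 8 residual degrees of freedom, and was checked on simulated data. Its test was two-sided with Benjamini-Hochberg adjustment over all tested probe sets, and a call needed both an adjusted p under 0.05 and a change of 1 or more in log2. Only the avrB response of atgsnor1-1 was tested for the members. The planned tests between atgsnor1-3 and sid2 were not kept as results, because the rule used those arrays. These differences are given as values. The number of arrays limits the precision.

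Names came from platform annotation. Of all probe sets, 13513 carried 1 symbol, 503 several and 8730 none, and 13436 were paired with 13286 loci of RefSeq's Arabidopsis gene table. The members, the role groups and the 14 gene lists were chosen with earlier results of these data known. Genes named in the text were those in the lists, the 8 lowest at rest and the 6 largest rises in atgsnor1-1. Also named were those at the limits of the rule and the 4 highest in the mutants after avrB. Up to 5 of the largest differences between the mutants were taken per state and direction, among those that passed the planned test before it was dropped. The other named members, and further differences between the mutants, were added after their values were seen. Replicate numbers did not pair the arrays: deviations of same-numbered arrays from their group means correlated at -0.04 between untreated and avrB atgsnor1-1, -0.00 between the untreated mutants and 0.03 between them after avrB. Alternatives were another scaling, other filters, a pseudocount, a variance without a trend, a replicate block, a fit of the compared groups alone, other limits of the rule, and leaving out each array. Python 3.11.15, pandas 2.3.3 and matplotlib 3.10.9 were used.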

Additional observations from a re-analysis of the deposited data

How the results depend on the processing

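Of the counts and medians over the members, 112 alternative values stayed close to the main ones and 15 moved. For single genes and medians, 356 kept direction and side of the threshold, 36 lost the call and 1 reversed. The cause was not tested where none is given. The count of members rising in atgsnor1-1 was 62 to 63 without 1 array and 70 with the replicate block, and none was called lower under any alternative. For atgsnor1-3 minus sid2 untreated, the 31 members at or below -1 became 17 with a pseudocount at the 25th percentile. They were 39 with quantile normalization and 26 to 34 without 1 array, and 0 to 2 were at or above 1. After avrB, 5 to 7 were at or above 1 and 2 to 7 at or below -1 without 1 array, and the median of -0.10 ran from -0.16 to 0.0414, where it reversed without avrB sid2 array 1. The block, the variance trend and a fit of the compared groups alone bear on tests and leave these described values as they are.

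The number of members was 215 at a resting limit of -1, 38 at -2 and 164 with untreated Col-0 at 20 units or more, by construction. A limit after avrB of -0.5 left 60, also by construction. The number was 77 to 115 without 1 array, and 90 with quantile normalization, 85 of them shared. With a pseudocount at the 25th percentile it was 73, 69 of them shared. Members at or below -1 in untreated atgsnor1-1 numbered 9 to 17. The median Col-0 response was 1.29 with quantile normalization and 1.19 to 1.37 without 1 array, and that of sid2 was 3.23 to 3.60. The promoter motif comparison and its alternative were not run. Dim signals limit the resting folds.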
